A study of Mus musculus with 30 samples.

Results

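The genes described here are the nuclear genes for subunits of the oxidative phosphorylation system, measured in whole blood of irradiated and unirradiated mice of 3 p38 genotypes. Members were chosen by name: probes for genes whose array names begin with Ndufa, Ndufb, Ndufc, Ndufs, Ndufv, Uqcr, Atp5, Cox4, Cox5, Cox6, Cox7 or Cox8, without the Ndufaf assembly factors, and the genes Sdha, Sdhb, Sdhc, Sdhd and Cyc1. A probe counted when the scanner software marked its spot as well above background on 4 or more of the 5 arrays in some group, and the brightest kept probe stood for its gene. This left 84 of the 87 genes so named, among 18726 genes on the array that passed the same filter. Cox7b2, Cox8b and Ndufa4l2 did not pass. Of the 84 members, 80 passed in all 6 groups, and Cox8c, Ndufb1-ps, Atp5s and Cox6a2 passed in some groups only. Complex I accounted for 37 members, complex II for 4, complex III for 9, complex IV for 17 and complex V for 17. Atp5s, now named Dmac2l, was caught by its old name and is an assembly-related factor, not a subunit. Cox7a2l is a factor of respiratory supercomplexes, and Ndufa4 was counted with complex IV, where the protein resides.

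All mice were male C57BL/6J, with no age given, and carried the genotype p38WT, p38DKI or p38DN as the labels write them; the labels do not expand DKI or DN, nor give the alleles or promoters behind them. One group of each genotype received 7 Gy of x-rays and the other none (0 Gy), and blood was drawn 24 h later by cardiac puncture into an RNA stabilising reagent. Each of the 6 groups had 5 arrays from independent experiments, 30 in all, hybridised with Cy3 in 1 colour. Levels are log2 signals relative to the 75th percentile of the same array, and a change is the mean level of the irradiated arrays minus that of the unirradiated ones. The words rise and fall are kept for genes that limma's moderated test called across the 18726 genes, with Benjamini-Hochberg adjustment and a threshold of 0.05.

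Oxidative phosphorylation couples the oxidation of fuel to the synthesis of ATP in the inner mitochondrial membrane. Complex I takes electrons from NADH and complex II takes them from succinate, complex III passes them from ubiquinol to cytochrome c, and complex IV hands them to oxygen. Complexes I, III and IV pump protons, and complex V, the ATP synthase, lets them flow back to make ATP. In blood these genes are expressed in white cells, platelets and maturing red cells, since mature red cells have lost their mitochondria. The p38 kinases are stress-activated protein kinases that respond to radiation among other insults.

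The promoters of 5 members are shown because the irradiation results turn on them: Atp5b and Cox7b fell in every genotype, Cox5a and Ndufs4 rose in p38WT and p38DKI, and Uqcr11 went opposite ways in p38WT and p38DN. Each is the 250 bases upstream of the RefSeq start, in GRCm38.p6 and 5′ to 3′ on the strand of the gene, with matches to the 5 motifs searched in capitals. The Atp5b promoter lies at chr10:128083057-128083306 on the plus strand, that of Cox7b at chrX:106015450-106015699 on the plus strand and that of Cox5a at chr9:57520982-57521231 on the plus strand. The Ndufs4 promoter lies at chr13:114388095-114388344 and that of Uqcr11 at chr10:80406822-80407071, both on the minus strand.
Atp5b: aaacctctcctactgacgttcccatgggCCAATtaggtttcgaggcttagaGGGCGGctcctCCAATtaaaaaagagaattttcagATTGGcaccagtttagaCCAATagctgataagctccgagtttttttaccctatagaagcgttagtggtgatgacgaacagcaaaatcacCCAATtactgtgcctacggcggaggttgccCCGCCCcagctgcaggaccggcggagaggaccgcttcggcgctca
Cox7b: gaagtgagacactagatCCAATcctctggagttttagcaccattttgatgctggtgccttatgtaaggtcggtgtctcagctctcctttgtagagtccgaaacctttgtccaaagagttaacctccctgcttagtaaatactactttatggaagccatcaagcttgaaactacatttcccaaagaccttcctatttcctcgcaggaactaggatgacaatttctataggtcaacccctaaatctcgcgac
Cox5a: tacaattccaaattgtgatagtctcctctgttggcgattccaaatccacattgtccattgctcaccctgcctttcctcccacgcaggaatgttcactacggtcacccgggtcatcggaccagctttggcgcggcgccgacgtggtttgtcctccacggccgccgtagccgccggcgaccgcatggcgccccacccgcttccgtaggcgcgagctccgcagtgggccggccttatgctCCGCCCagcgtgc
Ndufs4: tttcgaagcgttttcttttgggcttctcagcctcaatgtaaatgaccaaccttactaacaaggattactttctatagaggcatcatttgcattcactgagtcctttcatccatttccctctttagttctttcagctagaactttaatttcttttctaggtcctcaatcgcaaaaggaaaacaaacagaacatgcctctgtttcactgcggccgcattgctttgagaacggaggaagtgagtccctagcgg
Uqcr11: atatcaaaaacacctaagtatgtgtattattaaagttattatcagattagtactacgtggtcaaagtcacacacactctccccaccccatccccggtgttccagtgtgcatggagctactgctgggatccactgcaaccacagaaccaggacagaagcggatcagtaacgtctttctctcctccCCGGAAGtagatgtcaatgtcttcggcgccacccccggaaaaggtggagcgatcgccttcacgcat
Atp5b carried 5 CCAAT boxes and 2 SP1 matches, Cox7b had 1 CCAAT box, Cox5a 1 SP1 match and Uqcr11 1 ETS match, while Ndufs4 had none of the motifs.

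The motifs were the NRF1 core (CATGCGC), the ETS site (CCGGAAG), the CCAAT box (CCAAT), the SP1 site (GGGCGG) and the TATA box (TATAAA), each searched on both strands, and none of them contains another. RefSeq promoters matched 67 of the 84 members, some with several start sites, giving 72 promoters to set beside 32851 promoters of all genes. The NRF1 core stood in 12.5% of the members' promoters and 3.24% of all promoters. ETS sites stood in 16.7% against 6.91%, CCAAT boxes in 40.3% against 33.8%, SP1 sites in 34.7% against 32.7% and TATA boxes in 8.33% against 12.4%. NRF1 and the ETS family factor GABP are textbook regulators of respiratory chain genes. Among members that fell in p38DN, 19 of 30 promoters held a CCAAT box, and among the other members 10 of 42 did. The same counts were 5 and 4 for the NRF1 core, 7 and 5 for ETS sites, 10 and 15 for SP1 sites and 3 and 3 for TATA boxes. These are counts of letters, without a test, and say nothing on which factors bind.

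Facts of the whole series bear on these results. The 75th percentile of processed intensity ran from 43.3 to 230.4 over the arrays, and 39.7 to 63.2% of probes were well above background. Slides 1 to 5, read in one scan period, carried p38WT and p38DKI, and slides 6 to 10, read in an earlier one, carried p38DN, so that p38DN against p38WT cannot be told apart from slide and scan. Each p38DN slide held 1 unirradiated and 1 irradiated array, while only slide 2 held both doses of p38WT and only slide 4 both doses of p38DKI. Liver markers stood far above the median array on the irradiated p38DKI array 2 (8.75 log2 higher) and on the unirradiated p38DN arrays 4, 5 and 2 (7.79, 7.73 and 6.67). On p38WT arrays they stood at -2.63 to -0.58 relative to the median array. Albumin (Alb), a defining liver gene, had a level of 10.32 on that p38DKI array and of -5.96 to -1.02 on p38WT arrays, where it was not well above background on any unirradiated array. Of 18 liver markers, 5 to 13 were well above background on p38WT arrays and 5 to 18 on the others. Their mean level ranged from -0.44 to 6.78 in unirradiated and from -2.09 to 2.0 in irradiated p38DN blood, and from -2.59 to 2.35 and -2.64 to 7.74 in p38DKI. Heart muscle markers were highest on the irradiated p38WT array 2 (4.18 above the median array), the irradiated p38DN array 3 (3.54) and the unirradiated p38WT array 1 (2.93). The blood label fits its markers: all 16 B cell markers were well above background on every unirradiated array and fell in all 3 genotypes.

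In p38WT blood, 7 Gy moved few of the subunit genes, and as many rose as fell. Limma called 6 of 84 members higher (7.14%, against 15.0% of all genes) and 6 lower (7.14%, against 12.1%), with 20 members at an unadjusted p under 0.05. The members' median change was -0.10 and that of all genes -0.03, with a range from -1.81 (Cox6a2) to 1.15 (Cox5a). The 5 irradiated arrays lay wholly above the 5 unirradiated ones for 8 members (12.9% of all genes) and wholly below for 14 (11.4% of all genes). In bulk blood, fewer cells of a type and less RNA per cell cannot be told apart. With the percentile taken over probes detected on all arrays the split was 2 higher and 12 lower, and without scaling 0 higher and 6 lower. With slide as a fixed block limma called 0 members (3 higher and 1 lower at an unadjusted p under 0.05), and the median within slide 2 was 0.14 beside 0.13 over all genes.

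Complex I in p38WT held 4 of the rises and 2 of the falls. Ndufs4, an accessory subunit of the NADH-oxidising module, rose 1.86-fold (log2 0.90, SE 0.29, limma adjusted p = 0.020), with 1 irradiated spot dropped by the scanner's flags. Ndufa2 rose 1.49-fold, and Ndufa13, also known as Grim19, rose 1.41-fold from 6.95 ± 0.11 (SD, n = 5) to 7.45 ± 0.12 (SD, n = 5). The fourth was Ndufb7, which rose 1.36-fold. Ndufs8, which binds iron-sulphur clusters on the way to ubiquinone, fell 1.64-fold (limma adjusted p = 0.024), and Ndufb1-ps, now Ndufb1, fell 1.90-fold at a low level (limma adjusted p = 0.0069). No other complex I member passed, and the median of the complex was -0.17.

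No complex II gene passed in p38WT. Sdhd, which anchors the complex in the membrane, changed by 0.80 (SE 0.37, limma adjusted p = 0.12) and was the 1 of 4 members at an unadjusted p under 0.05, while Sdha, the flavoprotein that oxidises succinate, changed by -0.59 (SE 0.30, limma adjusted p = 0.16). In complex III, Uqcr11, a small accessory subunit, rose 1.51-fold (log2 0.60, limma adjusted p = 0.029), and Uqcrc2, a core subunit, fell 1.64-fold (log2 -0.72, limma adjusted p = 0.022). In complex IV, Cox5a rose and Cox7b fell, and in complex V Atp5b and Atp5g2 fell. The values of Cox5a, Cox7b and Atp5b follow with those of the other genotypes.

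In p38DKI blood the calls were again few. Limma called 6 members higher (7.14%, against 12.1% of all genes) and 8 lower (9.52%, against 19.3%), with 18 at an unadjusted p under 0.05. Complex I held 3 rises and 0 falls, complex III 1 and 0, complex IV 2 and 3 and complex V 0 and 5; no difference between complexes was tested. The irradiated arrays lay wholly above the unirradiated ones for 7 members (7.23% of all genes) and wholly below for 2 (12.5% of all genes). The members' median was 0.19 while that of all genes was -0.25, and only 16 of 84 members lay below the latter. The balance changed with scaling: the array median gave 14 higher and 1 lower, no scaling 9 and 0, and quantile scaling 7 and 3. With slide as a fixed block only slide 4 compared the doses, with 1 irradiated and 3 unirradiated arrays. The median within slide 4 was -0.07 beside -0.06 over all genes.

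The rises in p38DKI included Ndufs4, Ndufs5 and Ndufb3 of complex I, which rose 1.94-, 1.53- and 1.34-fold. Uqcrb, which sits at the ubiquinone site of complex III, rose 1.99-fold (log2 1.0, SE 0.29, limma adjusted p = 0.011). Its unirradiated arrays read 3.53, 3.22, 3.23, 3.47 and 3.30 and its irradiated arrays 3.77, 5.18, 4.65, 4.14 and 3.99. The groups did not overlap, and the highest value came from array 2, the one with the most liver marker signal. Without the 4 arrays highest in liver markers the change was 0.79 (limma adjusted p = 0.027). Ndufa4 rose 1.59-fold.

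The falls in p38DKI were of small membrane subunits and of the ATP synthase. Cox6a1 and Cox6c, accessory subunits of cytochrome c oxidase, fell 1.86- and 1.81-fold. Atp5l and Atp5h, subunits g and d of the synthase's membrane and stalk parts, fell 2.0- and 1.5-fold (limma adjusted p = 0.0023 and 0.016). Atp5l read 8.72, 7.55, 7.12, 7.74 and 8.09 without irradiation and 6.99, 6.37, 6.88, 6.79 and 7.20 after it, with an overlap of 1 pair of values. Atp5s, the former member of the family that is no subunit, fell 2.46-fold at a low level (limma adjusted p = 0.00042). No complex II gene passed in this genotype either, and 0 of the 4 had an unadjusted p under 0.05.

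One array of irradiated p38DKI blood, array 2, stood apart. Of the 84 members, 53 had their highest level of all 30 arrays there, and the members' median on it was 5.69, against 4.30 to 4.94 on the other irradiated p38DKI arrays. The array also had the highest liver marker level and an erythroid marker mean 3.13 below the median array. Its B and T cell marker means were the lowest of all arrays, at -3.94 and -2.31 relative to the median array. Its 75th percentile of intensity, to which its levels are scaled, was the highest of all arrays, at 230.4. Without the 4 arrays highest in liver markers, the members' median change in p38DKI was -0.04, with 6 higher and 11 lower, and all genes had a median of -0.19. The part of liver RNA in these levels was not tested.

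**Figure D1:**
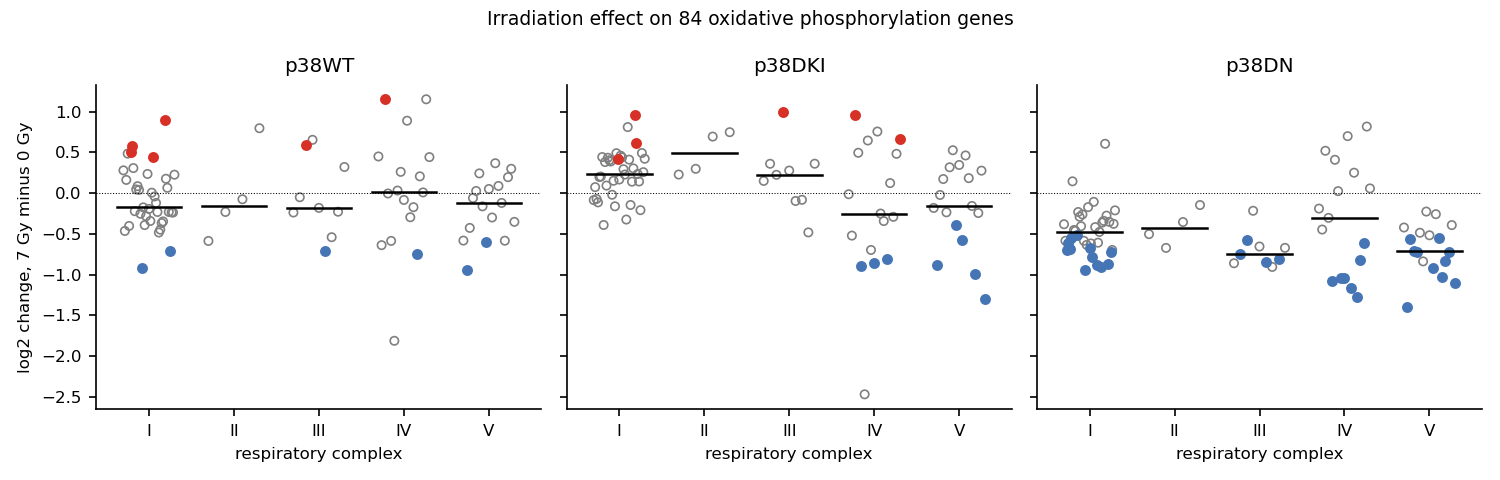
Log2 change after 7 Gy (vertical axis) of the 84 members, by respiratory complex, in each genotype. Filled red points rose, filled blue points fell, open points did not pass, and bars are medians; in p38DN all 33 filled points lie below zero.

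In p38DN blood every subunit gene that limma called after 7 Gy was a fall. Limma called 33 of 84 members lower (39.3%, against 10.3% of all genes) and 0 higher (against 17.6% of all genes), where 43 and 1 had an unadjusted p under 0.05. The members' median was -0.56 and that of all genes 0.01, and 75 of the 84 changes were below zero. The irradiated arrays lay wholly below the unirradiated ones for 20 members (7.67% of all genes) and wholly above for 0 (12.4% of all genes). The 4 other scalings also gave more falls than rises (38 and 0, 18 and 0, 7 and 0, 33 and 2). Normexp background correction, run with an offset of 50, left 0 calls (1 higher and 0 lower at an unadjusted p under 0.05). With slide as a fixed block, which compares the doses within each slide, 28 of the 33 members were called again. Liver markers moved the same way: 10 of 16 kept liver markers had an unadjusted p under 0.05 and a negative change, and 2 were called lower.

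Falls in p38DN reached 4 of the 5 complexes. In complex V 10 of 17 members fell, with a median of -0.72, in complex III 4 of 9 with a median of -0.74, in complex IV 7 of 17 with a median of -0.30 and in complex I 12 of 37 with a median of -0.48. The 4 complex II genes had a median of -0.43 and did not pass, with 1 at an unadjusted p under 0.05 (Sdhb, the iron-sulphur subunit, -0.67, SE 0.32, limma adjusted p = 0.12). The largest falls were in Atp5b, the catalytic beta subunit of the synthase (2.64-fold), Cox7b (2.41-fold) and Cox7a2 (2.24-fold), both small subunits of complex IV. Cox6a1 fell 2.11-fold, Cox6b2, the testis form of Cox6b, 2.06-fold, Cox6c 2.05-fold and Atp5k, subunit e of the synthase, 2.04-fold.

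Further falls in p38DN came from complexes I, III, IV and V. Atp5k read 5.37, 5.49, 5.82, 5.64 and 5.46 on unirradiated and 4.76, 4.29, 4.77, 4.43 and 4.39 on irradiated arrays, with no overlap. Cox7a2 read 4.47, 5.05, 5.38, 5.11 and 4.96 and then 4.17, 3.53, 3.77, 3.68 and 3.99, also with no overlap. In complex I, Ndufb11 of the membrane arm fell 1.92-fold (log2 -0.94, SE 0.21, limma adjusted p = 0.0014), Ndufs6 1.83-fold and Ndufa11 1.62-fold. The 3 kept probes of Ndufb11 changed by -0.96 to -0.13. Ndufs1, which holds iron-sulphur clusters near the NADH site, fell 1.88-fold. In complex III, Uqcrc2 fell 1.80-fold, Uqcrh, the hinge protein, 1.75-fold and Uqcr10 1.67-fold, while Cyc1, the haem protein that reduces cytochrome c, changed by -0.86 (SE 0.35, limma adjusted p = 0.068).

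Liver marker signal moved with the fall of the subunit genes in p38DN. Between the irradiated and unirradiated array of the same slide, the liver marker mean differed by -6.45 on slide 9, -5.16 on slide 10, -3.67 on slide 6, -1.65 on slide 7 and 0.20 on slide 8. On these slides the members' median differed by -1.10, -0.93, -0.38, 0.04 and -0.10, beside all-gene medians of 0.22, 0.08, 0.06, -0.13 and -0.18. Members below zero numbered 75, 81, 76, 41 and 53 of 84. The slides with the largest loss of liver signal held the lowest medians.

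**Figure D2:**
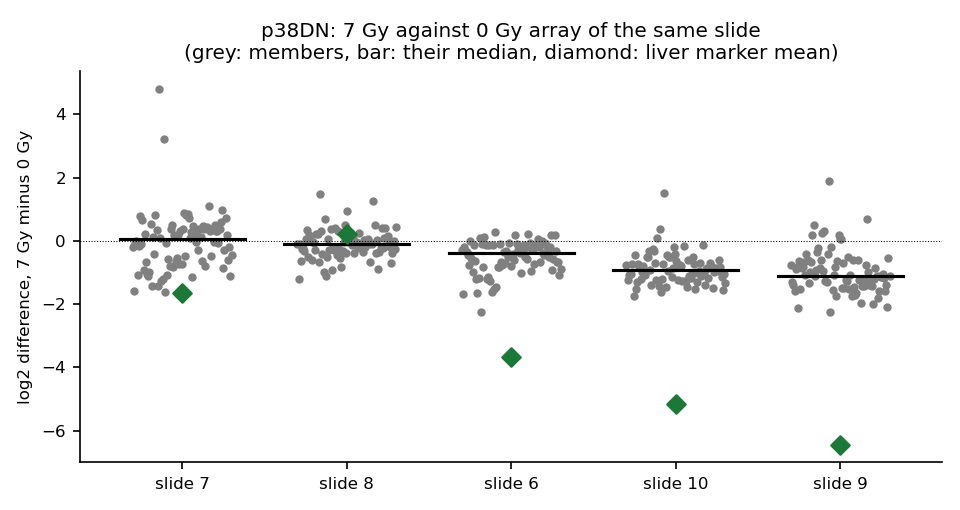
Log2 difference between the irradiated and the unirradiated p38DN array of each slide (vertical axis), with a grey point for each of the 84 members, a bar at their median and a green diamond for the liver marker mean. Medians run from 0.04 on slide 7 to -1.10 on slide 9, where the diamond is lowest.

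Fewer of the p38DN falls held without the arrays highest in liver markers. The 4 highest include unirradiated p38DN arrays 2, 4 and 5, which leaves arrays 1 and 3 in that group. The 7 arrays more than 2 log2 above the median array also include irradiated p38DN arrays 2 and 4. How far the smaller groups lowered the calls was not tested. Without the 4 highest arrays 16 of the 33 calls were kept, the members' median was -0.10 and that of all genes -0.14, and 15.1% of all genes were called lower. Without the 7 arrays more than 2 log2 above the median array 12 calls were kept, and Cox5a (1.19) and Ndufs4 (1.15) then rose. With the liver marker mean as a covariate 23 calls were kept and the median was -0.25. The 4 arrays are among the 7, so these fits were not separate checks. The share of all genes lower in every one of them was not taken. The same 11 members fell in each of these fits: Atp5b, Atp5e, Atp5h and Atp5k of complex V, Cox6a1, Cox6b2, Cox6c, Cox7a2 and Cox7b of complex IV, and Ndufa11 and Ndufs1 of complex I. No complex II or III gene was among them, and Uqcrc2, for example, went from -0.85 to -0.42 (limma adjusted p = 0.10) without the 4 arrays. In p38WT, whose arrays were low in liver signal, the same omissions took out no array and left the changes as they were. The calls there went from 12 to 23 and 24, since all arrays share 1 estimate of the spread.

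**Figure D3:**
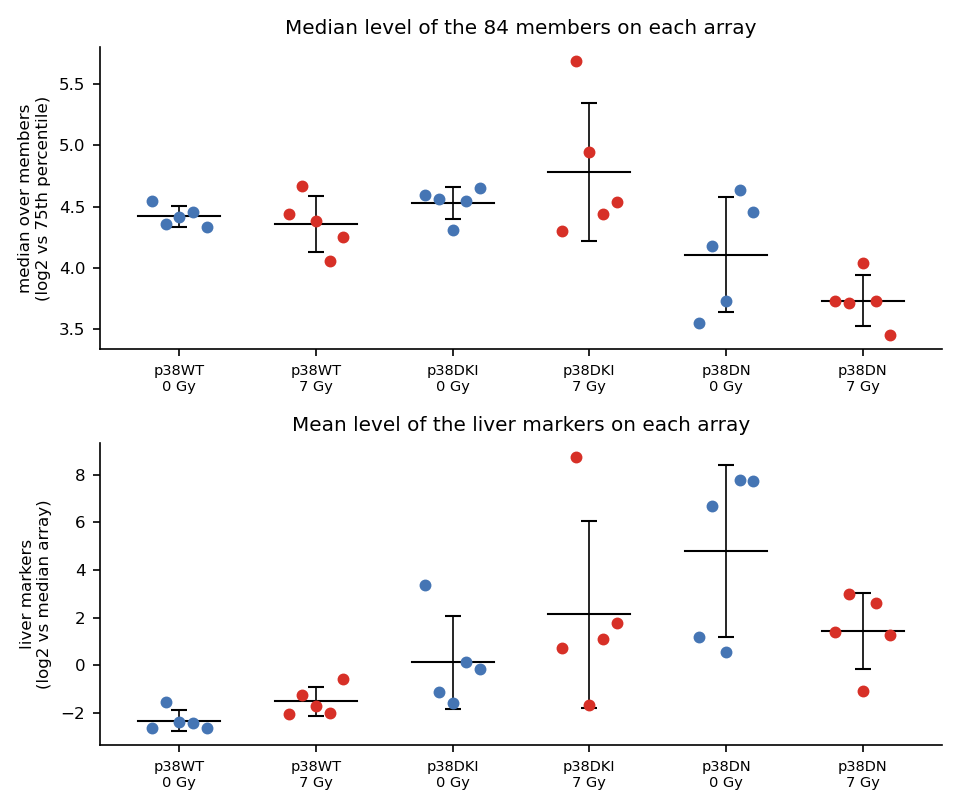
Median level of the 84 members (upper panel) and mean level of the liver markers relative to the median array (lower panel) on each of the 30 arrays, by group, with group means and SD. The irradiated p38DKI array 2 is highest in both panels, at 5.69 and 8.75.

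Atp5b and Cox7b were the 2 members that fell in all 3 genotypes. Atp5b in p38WT read 7.64, 7.72, 7.89, 7.52 and 7.29 without irradiation and 6.20, 6.79, 7.18, 6.64 and 6.55 after it. In p38DKI it read 8.35, 7.49, 7.30, 7.74 and 7.55 and then 6.78, 7.61, 6.51, 6.36 and 6.75. In p38DN it read 7.96, 7.99, 8.11, 8.07 and 8.10 and then 6.74, 6.32, 6.52, 6.82 and 6.81. The groups were apart in p38WT and p38DN, and the irradiated p38DKI array 2 alone overlapped the unirradiated range. The falls were 1.92-, 1.85- and 2.64-fold (log2 -0.94, -0.89 and -1.40, each with SE 0.21), with limma adjusted p of 0.0016, 0.0026 and 2.3e-05. Within the p38DN slides the differences ran from -1.67 to -1.22. The Atp5b probe lies at chr10:127527255-127527314 of mm9 on the plus strand.

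Cox7b, an accessory subunit of cytochrome c oxidase, in p38WT read 7.66, 7.81, 7.74, 7.38 and 7.20 without irradiation and 6.32, 6.98, 7.00, 7.03 and 6.72 after it. In p38DKI the values were 8.38, 7.34, 6.80, 7.70 and 8.0 and then 6.85, 6.82, 6.88, 6.60 and 7.07. In p38DN they were 5.83, 5.91, 6.28, 5.99 and 5.92 and then 4.91, 4.45, 5.19, 4.37 and 4.66. The dose groups were apart in p38WT and p38DN and overlapped in p38DKI, where the lowest unirradiated value came from array 3. The gene fell 1.68-, 1.74- and 2.41-fold (limma adjusted p = 0.013, 0.0078 and 0.00011). When slides were fitted as fixed blocks, the p38WT changes of Atp5b and Cox7b were -0.57 and -0.44 (limma adjusted p = 0.67 and 0.77), a fit in which only slide 2 compares the doses of p38WT.

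Cox5a and Ndufs4 were the 2 members that rose in both p38WT and p38DKI; they are named after their values were seen where the naming rule did not pick them. Cox5a, a nuclear-encoded subunit of complex IV, read 7.02, 7.00, 7.21, 6.71 and 6.89 in unirradiated and 7.50, 7.99, 8.34, 8.67 and 8.09 in irradiated p38WT blood. In p38DKI it read 7.65, 7.09, 6.71, 7.51 and 7.59 and then 9.0, 7.60, 8.25, 8.27 and 8.21, and in p38DN 5.74, 5.77, 5.56, 6.43 and 6.4 and then 7.21, 5.87, 6.38, 6.11 and 6.92. The dose groups were apart in p38WT, met at 1 pair of values in p38DKI and overlapped widely in p38DN. The rises were 2.22- and 1.94-fold (limma adjusted p = 0.0023 and 0.0091), and the p38DN change was 0.52 (SE 0.27, limma adjusted p = 0.16).

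Ndufs4 read 4.96, 4.84, 4.87, 4.63 and 4.35 in unirradiated p38WT blood and 5.06, 5.68, 6.19 and 5.60 on the 4 irradiated arrays with a value. In p38DKI it read 5.20, 4.62, 4.32, 5.11 and 5.18 and then 6.52, 5.35, 5.95, 5.68 and 5.72. Neither pair of groups overlapped. In p38DN, where the levels were 3.43, 3.09, 3.18, 3.76 and 3.67 and then 4.70, 3.16, 4.28, 3.64 and 4.37, the change was 0.61 (SE 0.27, limma adjusted p = 0.094). Fitting slides as fixed blocks gave changes of 1.73 for Cox5a and 1.65 for Ndufs4 in p38DKI. Slide 4 alone compares the doses there, and its only irradiated array is array 1. That array had the highest level of both genes among the irradiated p38DKI arrays. Both changes rest on it, so this fit is no separate check of the rises.

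**Figure D4:**
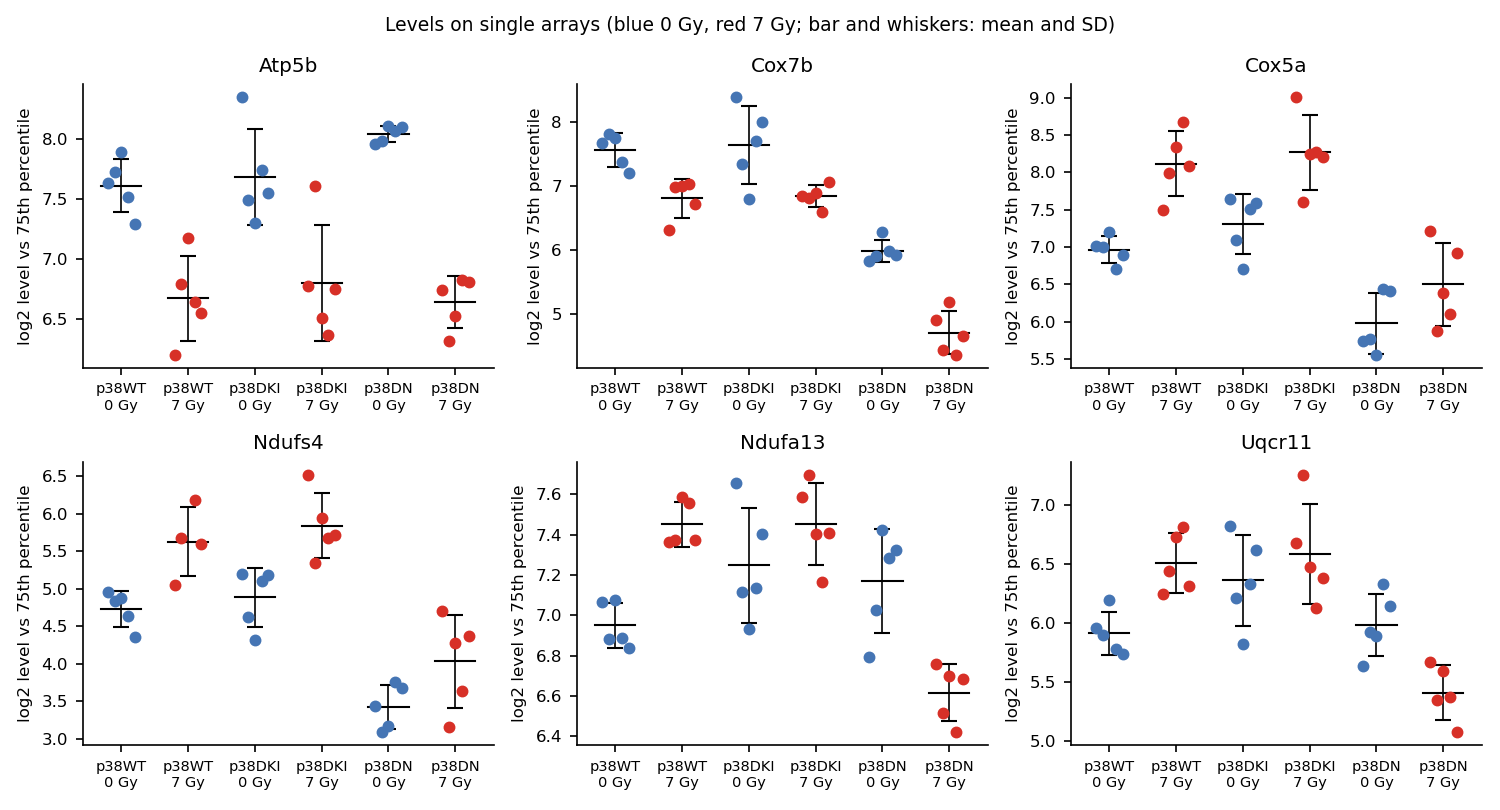
Log2 level relative to the array's 75th percentile (vertical axis) of Atp5b, Cox7b, Cox5a, Ndufs4, Ndufa13 and Uqcr11 on each array, blue for 0 Gy and red for 7 Gy, with group mean and SD. Atp5b and Cox7b are lower after irradiation in each genotype, and Ndufa13 and Uqcr11 are higher in p38WT and lower in p38DN.

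Across genotypes the calls overlapped in part. The 3 irradiation effects share no array. p38WT and p38DKI shared 2 rises (Cox5a and Ndufs4) and 3 falls (Atp5b, Atp5g2 and Cox7b). p38WT and p38DN shared 4 falls, of 6 and 33 (Atp5b, Cox7b, Ndufs8 and Uqcrc2), and p38DKI and p38DN shared 7, of 8 and 33 (Atp5b, Atp5h, Atp5l, Atp5s, Cox6a1, Cox6c and Cox7b). In all, 43 members passed in at least 1 genotype and 41 in none. Called or not, 21 members had a negative and 7 a positive change in all 3 genotypes. Within p38DN, 30 members were lower on 5 of 5 slides, 26 of them called, and 0 were higher on all 5. The counts in this paragraph were not taken over all genes, so they do not show sharing beyond that of other genes.

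The difference between irradiation effects was tested directly as an interaction in limma. For p38DN minus p38WT, 4 members were lower (against 0.641% of all genes) and 0 higher (against 0.999%), with 26 and 0 at an unadjusted p under 0.05, and the members' median was -0.46 against 0.08 over all genes. That median was 0.68 with normexp (all genes -0.12), 0.06 without scaling (all genes 0.60), -0.19 without the 4 arrays highest in liver markers (all genes -0.06) and -0.07 without the 7 (all genes -0.05). The 16 liver markers had a median of -4.35 in the same comparison, with 0 called. Ndufa13 differed by -1.05 (SE 0.21, limma adjusted p = 0.0147) and Uqcr11 by -1.17 (SE 0.29, limma adjusted p = 0.0380), and both rose in p38WT and fell in p38DN. Ndufa11b, a copy of the complex I subunit Ndufa11 whose transcripts a probe may not separate, differed by -1.09 (SE 0.28, limma adjusted p = 0.0420). Cox7c differed by -1.03 (SE 0.27, limma adjusted p = 0.0490), but its 3 probes did not move the same way in p38WT (-0.35 to 0.55). Ndufa11 missed the threshold with -0.86 (limma adjusted p = 0.0581).

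Ndufa13 read 7.07, 6.88, 7.08, 6.89 and 6.84 in unirradiated and 7.36, 7.38, 7.59, 7.56 and 7.37 in irradiated p38WT blood. In p38DN it read 6.79, 7.02, 7.43, 7.28 and 7.33 and then 6.76, 6.51, 6.70, 6.42 and 6.69. All irradiated p38WT arrays lay above, and all irradiated p38DN arrays below, the unirradiated arrays of their genotype. Uqcr11 read 5.96, 5.90, 6.19, 5.78 and 5.74 and then 6.24, 6.45, 6.73, 6.81 and 6.32 in p38WT, and 5.64, 5.93, 5.89, 6.33 and 6.14 and then 5.67, 5.35, 5.59, 5.38 and 5.08 in p38DN. Here the p38DN groups overlapped at the unirradiated array 1. The p38DN slides held no other genotype, and doses were compared within slides in p38DN and mostly between slides in p38WT. With slide as a fixed block the differences of Ndufa13 and Uqcr11 were -1.16 and -1.31 (limma adjusted p = 0.50 and 0.64), and without the 4 arrays highest in liver markers -0.99 and -0.94 (limma adjusted p = 0.029 and 0.069). After normexp background correction both signs turned (0.20 and 0.17), as did those of Ndufa13 and Uqcr11 within p38WT (-0.30 and -0.25).

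For p38DKI minus p38WT the interaction called 0 members in either direction, against 0 and 0.00534% of all genes higher and lower. At an unadjusted p under 0.05 there were 8 members, 4 each way, and the smallest limma adjusted p was 0.265. Members nearest to a difference were Atp5s (-0.94, SE 0.36), Ndufb1-ps (0.90, SE 0.35) and Ndufc2 (0.89, SE 0.38), with wide errors beside their size. The largest median of a complex was 0.65 in complex II and the lowest -0.17 in complex IV.

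Several subunits have tissue forms, and blood held the widespread ones and some of the others. Of the pair Cox4i1 and Cox4i2, the widespread and the lung form, neither passed after irradiation in any genotype; Cox4i1 changed by 0.45 in p38WT (SE 0.17, limma adjusted p = 0.054). Cox6a1 and Cox7a2, the widespread forms, fell in p38DN, while their muscle forms Cox6a2 and Cox7a1 changed by 0.41 (SE 1.32) and 0.70 (SE 0.79). Cox8a fell 1.53-fold in p38DN, and Cox5b, Cox6b1 and Cox7a2l passed in no genotype. Cox8c, the testis form, was well above background on 0 of 5 unirradiated and 3 of 5 irradiated p38WT arrays. The mean of the 5 irradiated arrays was 1.44-fold that of the unirradiated arrays with values below the detection bound raised to it. The irradiated mean includes arrays not well above background. The limma change was 1.15 there (SE 0.46, limma adjusted p = 0.065).

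The c ring of the ATP synthase is built from 1 mature protein encoded by Atp5g1, Atp5g2 and Atp5g3. Atp5g2 fell in p38WT (log2 -0.60, SE 0.15, limma adjusted p = 0.0043) and in p38DKI (-0.39, SE 0.14, limma adjusted p = 0.041), the latter turning to 0.03 with array median scaling and to 0.23 without scaling. In p38DN its change was -0.23 (SE 0.14, limma adjusted p = 0.25). The 2 kept probes of Atp5g2 changed by -2.16 and -0.60 in p38WT, the latter being the one used, and by -0.39 and -0.29 in p38DKI. Its unirradiated p38WT arrays read 6.78, 6.71, 6.71, 6.93 and 6.36 and the 4 irradiated arrays with a value 6.00, 6.13, 6.23 and 6.03, with no overlap. Atp5g1 and Atp5g3 passed in no genotype, and the 2 probes of Atp5g1 had opposite signs in each of them.

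The highest values of the muscle forms Cox6a2 and Cox7a1 stood on a few arrays. Cox6a2, the heart and skeletal muscle form, read 3.98, -0.63, 2.19, -1.08 and -1.01 in unirradiated p38WT blood and -2.67, 5.39, -2.47, -3.56 and -2.31 after irradiation. Its high values fell on the arrays with the highest heart muscle markers, irradiated p38WT array 2 and unirradiated p38WT arrays 1 and 3, and in p38DN on irradiated array 3 (4.56). Cox7a1 was high on the same arrays, at 4.96, 2.79, 1.59 and 3.99, and lay between -1.08 and 1.29 on the others. On the remaining p38WT arrays Cox6a2 read lower after irradiation. In p38DKI it changed by -2.47, the lowest change of any member there, and in p38DN it was lower on 4 of 5 slides. Neither gene passed in any genotype. Blood was drawn by cardiac puncture, and the part of heart tissue in these values was not tested.

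**Figure D5:**
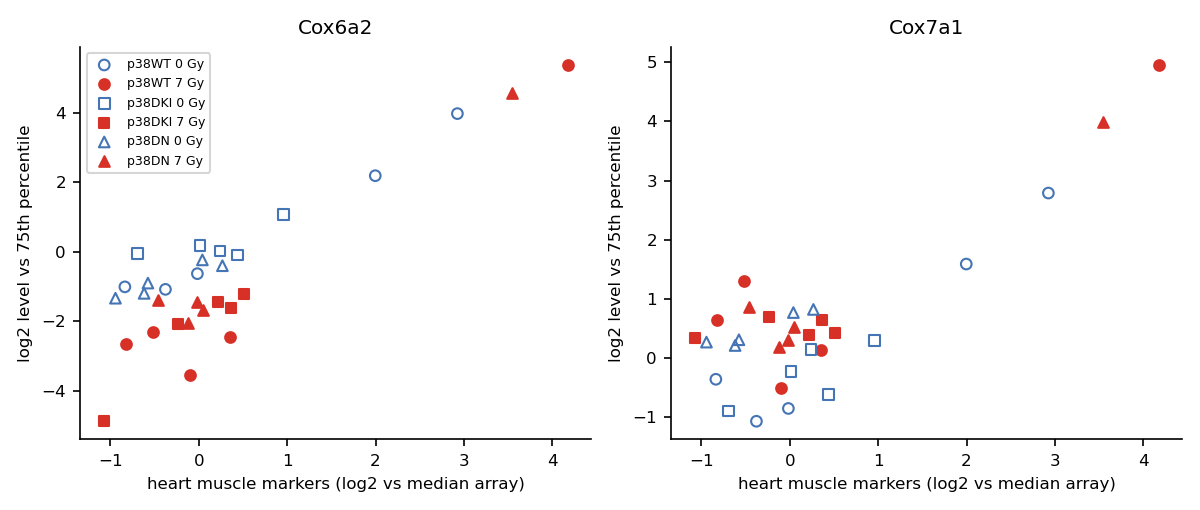
Level of Cox6a2 and Cox7a1 (vertical axes, log2 relative to the array's 75th percentile) against the mean of the heart muscle markers relative to the median array (horizontal axis) on the 30 arrays. The irradiated p38WT array 2 lies at the far right, at 4.18, with 5.39 for Cox6a2 and 4.96 for Cox7a1.

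Between unirradiated p38DKI and p38WT blood, limma called 0 members higher (against 0.0854% of all genes) and 0 lower (against 0.0160%), with 3 and 1 at an unadjusted p under 0.05 and a smallest adjusted p of 0.382. The nearest was Ndufb1-ps, at -0.73 (SE 0.25). After irradiation 1 member was higher in p38DKI (against 1.15% of all genes) and 0 lower (against 3.36%), with 20 and 2 at an unadjusted p under 0.05. That member was Atp5g2, higher by 0.58 (SE 0.15, limma adjusted p = 0.0326), and the call was lost without any one of 6 arrays, among them irradiated p38DKI arrays 2 and 3. It was also lost when the kept probes of each gene were averaged. The 16 liver markers had a median difference of 3.93 in the same comparison, with 1 called higher, and with their mean as a covariate the members at an unadjusted p under 0.05 were 1 higher and 3 lower, with 0 called. Ndufb5, Ndufc2, Ndufv2 and Ndufc1 of complex I followed at 0.87, 0.87, 0.64 and 0.98, with limma adjusted p of 0.053 to 0.072. No slide held both genotypes at the same dose.

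Between p38DN and p38WT, genotype, slide and scan period cannot be told apart, and the values are given as a description. Without irradiation 6 members were higher (against 18.3% of all genes) and 25 lower (against 37.6%), and after it 2 were higher (against 16.1%) and 46 lower (against 27.7%). Without irradiation the split turned on the scaling: it was 17 higher and 15 lower over detected probes, 19 and 19 with quantile scaling and 15 and 14 in the authors' deposited table, where the members' median went from -0.23 to 0.08, 0.00 and 0.07. Liver markers were called higher in p38DN for 15 of 16 without irradiation and 4 of 16 after it. Without irradiation the log2 difference was -1.61 for Cox7a2l, -1.57 for Cox7b, -1.05 for Ndufa2 and -0.94 for Atp5g2, and 1.63 for Ndufa11b and 1.91 for Cox4i2. After irradiation it was -2.09 for Cox7b, -1.72 for Atp5j2 (subunit f of the synthase), -1.53 for Atp5k, -1.48 for Ndufa2 and -1.18 for Ndufa7. Cox4i2 was above background on every array of all groups.

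Genes around the respiratory chain were read from lists, whose counts stand beside the shares of all genes called higher and lower: 15.0% and 12.1% in p38WT, 12.1% and 19.3% in p38DKI and 17.6% and 10.3% in p38DN. Of 45 kept assembly factors of the complexes, 4 rose and 1 fell in p38WT, 6 and 1 in p38DKI and 4 and 6 in p38DN; Coa3, which assembles complex IV, rose by 0.90 in p38WT and 0.87 in p38DKI, and Lrpprc, which stabilises mitochondrial messages, fell by 1.15 in p38WT. Of 19 genes for electron carriers and coenzyme Q synthesis, 0 rose and 1 fell in p38WT (1 each way at an unadjusted p under 0.05), 2 and 0 in p38DKI (5 and 1) and 0 and 1 in p38DN (0 and 4). Sqor, which oxidises sulphide, rose by 1.78 in p38DKI, with an SD of 1.16 on irradiated and 0.17 on unirradiated arrays. Dhodh, of pyrimidine synthesis, fell by 0.85 in p38WT. Of 19 citrate cycle and pyruvate dehydrogenase genes, 4 fell in p38WT, 0 in p38DKI and 5 in p38DN, and 0 rose in any (at an unadjusted p under 0.05, 6, 1 and 5 were lower and 0, 1 and 0 higher). Citrate synthase (Cs) fell by 0.56 in p38WT, and Ogdh by 0.74 in p38WT and 0.90 in p38DN. None of the lists was read again without the arrays highest in liver markers.

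Of 78 mitochondrial ribosomal proteins 2 rose and 12 fell in p38WT, 5 and 1 in p38DKI and 2 and 16 in p38DN, and Mrpl32 fell in each (by 1.32, 1.34 and 1.65). Of 19 regulators, 1 rose and 5 fell in p38WT, 0 and 5 in p38DKI (0 and 6 at an unadjusted p under 0.05) and 0 and 5 in p38DN (0 and 7). Tfam, which packages and transcribes mitochondrial DNA, fell by 1.22, 0.96 and 0.84. The ribosomal proteins that fell in p38WT were a share near that of all genes, and those that rose a smaller share than that of all genes in every genotype. The mitochondrially encoded subunits were not analysed here.

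Among 9 inner membrane carriers and uncoupling proteins, 1 rose and 2 fell in p38WT, 2 and 2 in p38DKI and 1 and 2 in p38DN. Vdac3, an outer membrane channel, rose by 0.89, 0.84 and 1.13, and Ucp2, an uncoupling protein of immune cells, fell by 1.13, 2.13 and 1.46. Of 20 glycolysis genes, 7 rose and 0 fell in p38WT (7 and 2 at an unadjusted p under 0.05), 8 and 1 in p38DKI and 7 and 0 in p38DN (10 and 0). Slc2a3, a glucose transporter of white cells and platelets, rose by 1.66, 1.33 and 2.14. Hk3, the hexokinase of myeloid cells, rose by 1.53 in p38WT and 1.05 in p38DKI.

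Markers of blood cells changed in the same arrays as the subunit genes. All 16 B cell markers fell in each genotype, and of 16 T cell markers 9, 14 and 6 fell in p38WT, p38DKI and p38DN. Of 21 erythroid markers 10, 15 and 12 fell and 2, 0 and 2 rose (1 in p38DKI at an unadjusted p under 0.05). Of 16 platelet markers 15, 8 and 16 rose, and of 15 neutrophil markers 12, 10 and 1 rose and 0, 1 and 1 fell. Of 12 kept heart muscle markers 0 passed in any genotype, and of 16 kept liver markers 0, 0 and 2 fell. Ranges of the marker means were 4.99 to 5.74 without and 4.0 to 4.82 with irradiation for erythroid markers in p38WT, 5.09 to 5.95 and 1.75 to 4.78 in p38DKI, and 4.95 to 6.00 and 3.14 to 4.16 in p38DN. The part of these shifts in the subunit genes' values was not tested.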

How the data were processed

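Whole-blood RNA of 30 mice was hybridised to Agilent 1-colour arrays. Per the file headers, the authors read the arrays with Agilent Feature Extraction 12.0.2, which gives a background-subtracted processed intensity per spot and flags for background, uniformity and saturation. Probe positions in these files are on mm9. The authors' deposited table of log2 values holds fewer probes (70 members among 15134 genes) and served as an alternative. How that table was scaled is not given in the sources used here.

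Of 44397 spots, 43020 were no controls and stood for 39429 probes. Spots that carried the scanner's flags for non-uniform pixels or outlying replicates were dropped, repeated spots were averaged, and log2 processed intensity minus the array's 75th percentile was the level. A probe was kept when well above background on 4 or more of 5 arrays in some group, with values on at least 20 arrays, which left 23617 probes and 18726 genes. None of the members' spots was saturated. The number of arrays limits the precision.

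Group means over all 30 arrays were fitted with limma 3.58.1 in R 4.3.3 (24 residual degrees of freedom), with Benjamini-Hochberg adjustment over all genes and a threshold of 0.05. Nothing in the labels says more than that the experiments were independent, so p-values measure the spread between these arrays. Members were named by rule: the 3 with the smallest p of each complex and irradiation effect, the 5 of each other comparison, and always the members with tissue forms, the complex II genes and Cyc1. Other members named were chosen after their values were seen, as were the promoters shown. The members, gene lists and markers were chosen with earlier results of these data known. One gene of the Ndufa family is not reported here. RefSeq promoters are from GRCm38.p6. Code was tested on simulated data. Alternatives covered scaling, background correction, the filter, the probe rule, slide and replicate blocks, and omitted arrays. Those on the 7 arrays and the covariate for liver markers were chosen after seeing the data. Normexp was run with an offset of 50, close to the 75th percentile of processed intensity on the dimmest arrays (43.3 at the lowest). The part of this offset in the calls lost and signs turned with normexp was not tested.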

Additional observations from a re-analysis of the deposited data

Results flagged for a closer look

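In groups of 5 arrays, a value was taken as apart when its gap to the next, over the group's range, exceeded 0.71. This held for 29 of 320 groups of named members (9.06%), where chance gives about 1 in 20. Irradiated p38DKI array 2, the array highest in liver markers, gave 11 of them. It was highest for Atp5a1 (5.23), Atp5g1 (7.45), Atp5g3 (6.46), Cox4i1 (7.20), Cox5b (6.39), Cyc1 (4.91), Ndufa11b (0.67), Sdha (4.95), Sdhb (7.12) and Uqcrc2 (4.88), and lowest for Cox6a2 (-4.88). The next values of Sdha and Sdhb in that group were 2.95 and 5.63.

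Unirradiated p38DN array 1 was lowest for Atp5s (-3.89), Ndufa7 (4.73), Ndufb11 (5.17) and Uqcr10 (4.03). Irradiated p38WT array 1 was lowest for Atp5s (-3.42) and Sdha (1.94) and highest for Ndufa11b (1.09). Irradiated p38WT array 2 was highest for Cox6a2 (5.39) and lowest for Ndufb1-ps (-2.45), and irradiated p38DN array 3 was highest for Cox6a2 (4.56) and Cox7a1 (3.99); these arrays were also the highest of their groups in heart muscle markers. Cox6b1 was lowest on irradiated p38WT array 3 (0.33) and Ndufc2 lowest on irradiated p38WT array 4 (2.34). Ndufb1-ps was highest on unirradiated p38WT array 2 (-0.17), and Cox8a was highest on unirradiated p38DN array 3 (8.89). Atp5s was lowest on irradiated p38DN array 2 (-4.56), and in unirradiated p38DKI blood Cox6a2 was highest on array 5 (1.08) and Cox7a2l on array 2 (7.46).

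The irradiation effect differed between p38DN and p38WT by limma's interaction test for Cox7c (-1.03), Ndufa11b (-1.09), Ndufa13 (-1.05) and Uqcr11 (-1.17), values of p38DN minus p38WT on the log2 scale.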

How the results depend on the processing

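The 12 calls of irradiation in p38WT became 6 without scaling, 0 with normexp and with slide as a fixed block (12 and 4 members at an unadjusted p under 0.05), 23 and 24 without the 4 and the 7 arrays highest in liver markers and 21 with the liver covariate. Leaving out 1 array gave 8 (without irradiated p38WT array 4) to 19 (without irradiated p38DKI array 2). The 14 calls in p38DKI became 9 without scaling, 0 with normexp (7 unadjusted) and 2 with the slide block, and 11 to 15 leaving out 1 array. The 33 in p38DN became 18 with array median scaling, 7 without scaling, 0 with normexp (1 unadjusted) and 16 and 14 without the 4 and the 7 arrays, and 22 (without irradiated array 5) to 44 (without irradiated p38DKI array 2) leaving out 1 array.

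Medians moved too. That of p38WT (-0.10) was -0.28 over detected probes, -0.53 unscaled, -0.72 with normexp and 0.14 with the slide block, and -0.17 to -0.05 leaving out 1 array. That of p38DKI (0.19) was 0.61 with array median scaling and 0.82 unscaled, where the all-gene median moved from -0.25 to 0.17 and 0.37, and -0.04 (without irradiated array 2) to 0.27 leaving out 1 array. That of p38DN (-0.56) was -0.052 with normexp and -0.10 and -0.18 without the 4 and the 7 arrays, and -0.67 to -0.46 leaving out 1 array. Unscaled, the all-gene median in p38WT moved from -0.03 to -0.46.

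The 1 call of p38DKI against p38WT after irradiation became 2 over detected probes, in the deposited table and with the replicate block, 7 with slide as a random block, and 0 in 9 settings: array median, no scaling, normexp, no filter, mean of probes, the slide block, without the 4 arrays, without the 3 arrays highest in heart markers, and the liver covariate. Leaving out 1 array gave 0 to 5. The 31 calls of p38DN against p38WT without irradiation became 49 with normexp and 50 with the liver covariate (29 to 44 leaving out 1 array). The 48 after irradiation became 31 over detected probes, 22 unscaled, 30 with quantile scaling, 4 with normexp and 27 in the deposited table (44 to 54 leaving out 1 array). The slide block could not be fitted for these 2 comparisons. The 4 differences p38DN minus p38WT became 2 over detected probes and with the replicate block, 1 in the deposited table (a member not among the 4), without filter, without the 3 arrays highest in heart markers and without the 7 arrays, and 0 with array median, no scaling, normexp and the slide block (1 to 7 leaving out 1 array, with 1 or 2 without most p38WT or p38DN arrays). p38DKI against p38WT without irradiation and p38DKI minus p38WT stayed at 0 in every setting run.

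Signs turned for Atp5g2 in p38DKI (0.030 with array median, 0.23 unscaled) and with normexp for Ndufa13, Ndufa2 and Uqcr11 in p38WT (-0.30, -0.24 and -0.25) and for Ndufa13, Uqcr11 and Cox7c in p38DN minus p38WT (0.20, 0.17 and 0.31). Causes were not tested. Replicate numbers are shared between dose groups, but same-numbered arrays correlated from -0.21 to 0.41, so the main fit did not pair them. In p38DN the same-numbered arrays did share a slide. That pairing was fitted only with the slide block, which kept 28 of the 33 p38DN calls, and with the replicate block. With the replicate block the irradiation calls were 13, 14 and 29. Dim probes near background limit Cox8c, Cox6a2, Ndufb1-ps and Atp5s.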
